A study of Arabidopsis thaliana with 12 samples.

Results

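Heat shock factors are the transcription factors that switch on chaperone genes when plant cells warm up. 8 genes of this family were followed in Arabidopsis thaliana seedlings with 2 partners of the heat response, the transcription factor gene DREB2A and the coactivator gene MBF1C. The 10 genes were chosen by locus identifier from 33602 genes listed, and all 10 passed the filter on low values that 21316 genes passed. Their identifiers were AT4G17750 (HSFA1A), AT5G16820 (HSFA1B), AT1G32330 (HSFA1D), AT2G26150 (HSFA2), AT3G51910 (HSFA7A), AT4G36990 (HSFB1), AT5G62020 (HSFB2A), AT4G11660 (HSFB2B), AT5G05410 (DREB2A) and AT3G24500 (MBF1C). Whole seedlings of the wild type Columbia were raised at 22 °C with days of 10 h; the white light was 100 µmol m-2 s-1 and its red to far-red ratio 1.1. At 3 days of age they spent the light period of day 4, 10 h long, either in white light or in shade, each of them at either 20 or 28 °C, and were collected when it ended. Each of the 4 groups had 3 biological replicates, and no group carried a mutation or a transgene. Shade is a signal of neighbouring plants and 28 °C is a mild warmth for this species. How the shade was made was not given in the sources used here.

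In plants the class A1 factors are present before any stress and are held inactive by HSP70 and HSP90 chaperones. Heat draws the chaperones to misfolded proteins and frees the A1 factors, which bind heat shock elements and turn on chaperone genes as well as the genes of further factors, among them HSFA2, HSFA7A, the class B factors, DREB2A and MBF1C. Class B factors lack the activation domain of class A and are known mainly as repressors that limit or end the response. DREB2A activates drought and heat genes, and its protein is unstable in unstressed cells. MBF1C is a transcriptional coactivator needed for heat tolerance.

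The stretches before the gene starts are shown because 3 of the 10 genes carry the extended heat shock element there, the site that heat shock factors bind. Sequences were read by locus from the RefSeq TAIR10.1 assembly, and the deposited values themselves carry no coordinates. Letters searched on both strands in the 300 bases before each annotated start were the 2-unit element TTCNNGAA or GAANNTTC, the same element with a 3rd inverted unit after 2 more bases, the DRE core ACCGAC or GCCGAC bound by DREB2A, and the G-box CACGTG. Each 3-unit match contains 2-unit matches. Capitals mark heat shock elements, all strands are the plus strand, and each stretch ends at the base before the gene start. HSFA7A is at chr3:19264941-19265140, HSFA2 at chr2:11135524-11135623 and DREB2A at chr5:1602005-1602204.
HSFA7A: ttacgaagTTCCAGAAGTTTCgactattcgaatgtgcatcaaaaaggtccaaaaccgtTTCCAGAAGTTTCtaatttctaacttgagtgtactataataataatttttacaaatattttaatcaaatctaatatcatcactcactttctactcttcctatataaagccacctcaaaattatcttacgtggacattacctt
HSFA2: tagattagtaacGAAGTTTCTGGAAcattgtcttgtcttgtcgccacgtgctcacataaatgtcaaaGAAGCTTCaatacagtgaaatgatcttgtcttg
DREB2A: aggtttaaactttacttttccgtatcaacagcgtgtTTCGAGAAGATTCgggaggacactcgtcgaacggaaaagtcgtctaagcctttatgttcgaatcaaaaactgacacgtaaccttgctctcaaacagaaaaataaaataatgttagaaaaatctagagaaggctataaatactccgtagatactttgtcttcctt

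HSFA7A carried the same 13 letters at 192 and at 142 bases before its start. HSFA2 carried a 3-unit element at 88 bases, a separate 2-unit element at 33 bases and a G-box at 56 bases. DREB2A carried a 3-unit element at 164 bases. The 3-unit element was found in 3 of the 10 windows and in 0.485% of 27443 gene windows of the same length. The 2-unit element was found in 3 of the 10 and in 19.3% of all. A DRE core was found in the windows of HSFA1A, at 120 bases, and HSFB2A, at 71 bases, and in 8.24% of all windows. The G-box was found in 7.09% of all. These letters were not found in the windows of HSFA1B, HSFA1D, HSFB1, HSFB2B and MBF1C. 4 windows, those of HSFA1A, HSFA1B, HSFA2 and MBF1C, reach into a neighbouring gene, while the 3 stretches printed here do not. A match describes letters and not a bound site.

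**Figure D1:**
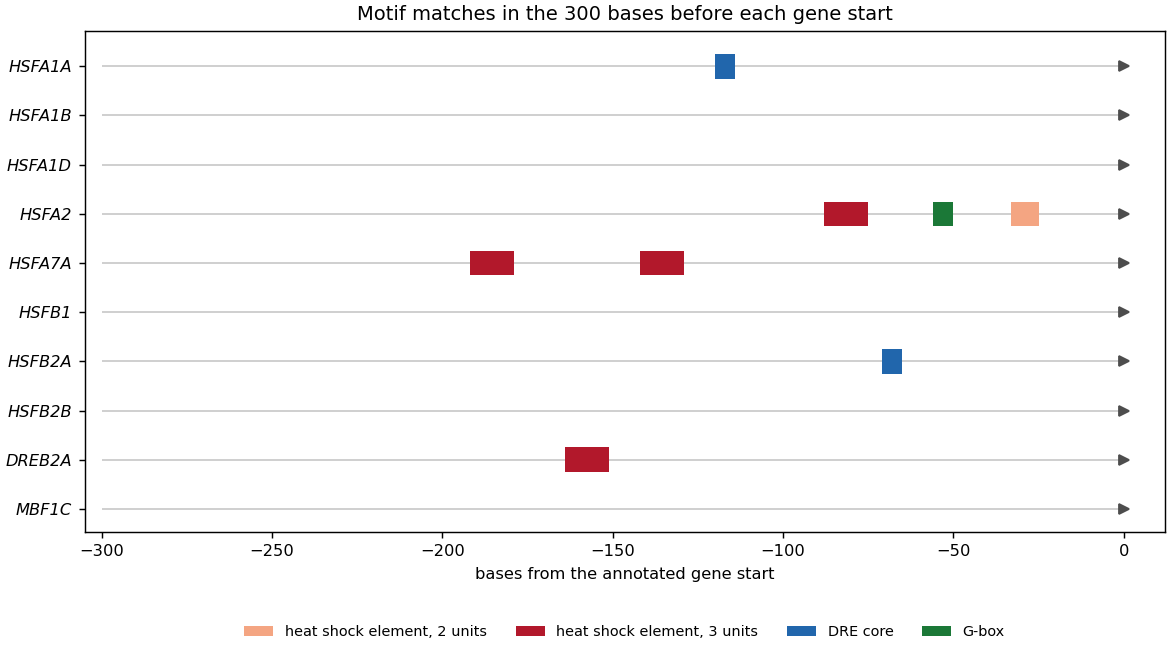
Motif matches in the 300 bases before the start of each of the 10 genes. The horizontal axis gives bases from the annotated start, the arrowhead marks the start, and colours mark the motif. HSFA7A holds 2 of the 3-unit heat shock elements, HSFA2 and DREB2A 1 each, and 5 genes hold none of the motifs.

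Values are given as CPM, the reads of a gene scaled to the total of reads assigned to genes in its library, and changes as differences of log2 CPM with 0.5 read added. The 12 libraries held 3500325 to 4481869 assigned reads, so that 1 CPM stood for 3.5003 to 4.4819 reads. A gene was called changed at an adjusted p under 0.05 in limma, with Benjamini-Hochberg adjustment over all 21316 tested genes. 18S ribosomal RNA took 0.982 ± 0.604% of reads in white light at 20 °C, 1.42 ± 0.776% in white light at 28 °C, 0.749 ± 0.165% in shade at 20 °C and 1.77 ± 0.550% in shade at 28 °C (SD, n = 3). The summed level of 4 leaf genes (LHCB1.1, RBCS1A, RCA and LHCB3) was 26516 to 27158 CPM in white light at 20 °C, 13111 to 19252 in white light at 28 °C, 17921 to 21057 in shade at 20 °C and 10767 to 16176 in shade at 28 °C. The 5 root hair and root genes summed to 138 to 177 CPM in white light at 20 °C and 213 to 260 at 28 °C, with no overlap, and to 144 to 198 in shade at 20 °C and 196 to 303 at 28 °C, with overlap. The 5 seed storage genes summed to 1.36 to 187 CPM and the 4 flower organ genes to at most 1.43 CPM, with AP1 at 0 reads in every library. The part of tissue makeup and of 18S reads in the results was not tested. In whole seedlings fewer cells of a type and less RNA per cell cannot be told apart. The median log2 change of all tested genes was 0.16 for warmth in white light and 0.01 after each library's median was subtracted, which also lowered the share of rises among called genes from 69.3% to 39.8%. For warmth in shade that share went from 52.4% to 25.1%.

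Counting could not separate every gene. HSFB1 had the same reads in all 12 libraries as AT4G36988, an identifier that the TAIR10.1 annotation does not hold, so its value belongs to both. Genes on the other strand overlap HSFA1B by 44 bp, HSFB2B by 308 bp, DREB2A by 73 bp and MBF1C by 22 bp and 124 bp. In addition, an antisense lncRNA gene lies inside HSFB2B and an antisense RNA gene inside MBF1C. Without a statement that the library kept the strand, their reads cannot be told apart. The 5 measured neighbours among these were not called in any comparison.

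Compared per kilobase of the longest transcript, HSFB1 was the most abundant of the 10 in every group and HSFA2 the least. In white light at 20 °C HSFB1 stood at 39.0 ± 2.97 CPM per kb (SD, n = 3), above every other member. MBF1C followed at 8.93 ± 1.18, HSFA1D at 8.66 ± 2.76, HSFA1B at 7.79 ± 1.20 and DREB2A at 7.23 ± 2.17, and the libraries of neighbours in this order overlapped. HSFA7A at 4.92 ± 1.35 and HSFA1A at 4.42 ± 0.495 also overlapped. HSFB2B at 2.36 ± 1.15, HSFB2A at 1.57 ± 0.835 and HSFA2 at 1.31 ± 0.415 CPM per kb formed the low end, overlapping each other and lying below every HSFA1A library. In white light at 28 °C the order began with HSFB1 at 81.8 ± 4.83, MBF1C at 36.2 ± 1.54 and HSFA7A at 13.3 ± 2.70 CPM per kb, and the first pair did not overlap each other or the next gene. In shade at 28 °C it began with the same genes at 68.9 ± 7.61, 27.6 ± 6.68 and 13.5 ± 0.716 CPM per kb, with no overlap between neighbours. In shade at 20 °C HSFB1 stood at 35.8 ± 4.95, MBF1C at 9.25 ± 1.09 and HSFA1B at 8.36 ± 1.59 CPM per kb, and the last pair overlapped.

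**Figure D2:**
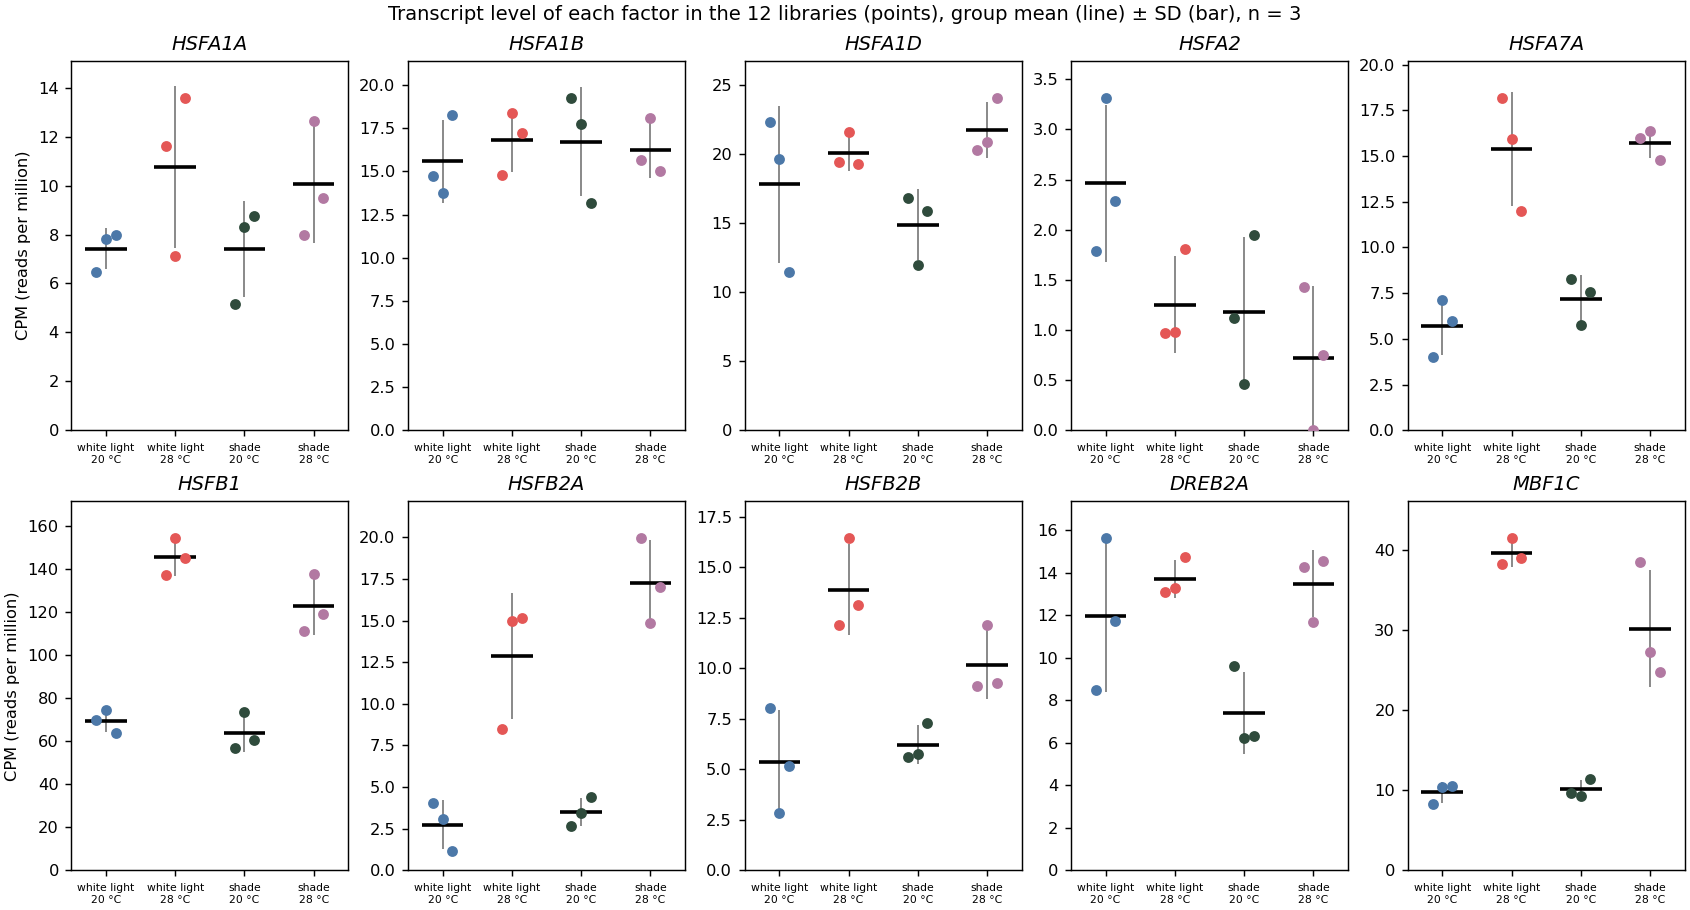
CPM of each of the 10 genes in the 12 libraries, with points for libraries, a line for the group mean and a bar for ± SD (n = 3). Each panel has its own vertical axis, which starts at 0. HSFA7A, HSFB1, HSFB2A, HSFB2B and MBF1C sit higher in all libraries at 28 °C than in all libraries at 20 °C, while HSFA1B shows no such gap. The share of all tested genes with such a gap was not counted.

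The class A1 factors, which start the response in Arabidopsis, were not called in any comparison. HSFA1A stood at 6.47, 7.81 and 7.999 CPM in white light at 20 °C and at 11.6, 7.12 and 13.6 at 28 °C. In shade it stood at 5.15, 8.30 and 8.78 CPM at 20 °C and at 7.98, 12.6 and 9.51 at 28 °C. At both light settings the groups overlapped, and the log2 changes with warmth were 0.49 ± 0.30 in white light (SE, limma adjusted p = 0.306) and 0.45 ± 0.30 in shade (adjusted p = 0.491).

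HSFA1B stood at 14.7, 13.7 and 18.3 CPM in white light at 20 °C, 14.8, 18.4 and 17.2 in white light at 28 °C, 19.3, 17.75 and 13.2 in shade at 20 °C and 15.68, 18.1 and 15.02 in shade at 28 °C. Every group overlapped every other. The 95% interval of its change with warmth ran from -0.31 to 0.53 in white light and from -0.45 to 0.40 in shade. HSFA1D stood at 22.3, 19.6 and 11.4 CPM in white light at 20 °C and at 19.4, 21.6 and 19.2 at 28 °C, with overlap. In shade HSFA1D was at 16.8, 12.0 and 15.8 CPM at 20 °C and at 20.2, 20.8 and 24.0 at 28 °C. These shade groups did not overlap, but the change of 0.55 ± 0.22 was not called (unadjusted p = 0.0171, limma adjusted p = 0.174).

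HSFA2 and HSFA7A are class A factors that A1 factors switch on, HSFA2 being known as the factor that sustains the response over repeated heat. HSFA2 was close to the limit of detection. Its CPM values were 1.78, 3.31 and 2.29 in white light at 20 °C, 0.969, 0.982 and 1.81 in white light at 28 °C, 1.1195, 0.461 and 1.95 in shade at 20 °C and 1.43, 0 and 0.751 in shade at 28 °C. These came from 30, 16, 15 and 8 reads per group in that order. The library of shade at 28 °C with 0 reads allows a level of up to 0.744 CPM, the limit that 3 reads give, for counting error only. HSFA2 was not called in any comparison. Its lowest adjusted p was 0.0601, for shade at 28 °C against white light at 20 °C, where the log2 change was -2.18 ± 0.83 and the groups did not overlap. Without the library with 0 reads that change was -1.10 (limma adjusted p = 0.353). It was called without replicate 1 of shade at 28 °C (adjusted p = 0.0201), after each library's median was subtracted (0.0496) and with quantile normalization (0.0469).

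HSFA7A rose with warmth at both light settings. It stood at 4.02, 7.10 and 5.999 CPM in white light at 20 °C and at 18.17, 15.9 and 12.0 at 28 °C, with no overlap. In shade it stood at 8.28, 5.76 and 7.56 CPM at 20 °C and at 15.96, 16.4 and 14.8 at 28 °C, again with no overlap. The log2 changes were 1.43 ± 0.27 in white light, a fold of 2.69 (limma adjusted p = 0.000516), and 1.13 ± 0.27 in shade, a fold of 2.19 (adjusted p = 0.0151). The call in shade was lost without replicate 2 of shade at 20 °C (adjusted p = 0.0936) and without replicate 2 of shade at 28 °C (adjusted p = 0.0644). The 2 identical heat shock elements printed above lie before this gene, while HSFA2 and DREB2A, each with a 3-unit element, were not called. HSFB1, HSFB2A, HSFB2B and MBF1C, which rose with warmth in white light, held no heat shock element in their windows. A link between these letters and the changes was not tested.

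Of the 5 class B factors, HSFB3 was too low to be tested and HSFB4 was not called for warmth. HSFB1, HSFB2A and HSFB2B rose with warmth in white light, where 10.8% of all tested genes rose. HSFB1 and HSFB2A also rose in shade, where 2.19% did. HSFB1, a repressor of HSFA2 and HSFA7A in Arabidopsis, stood at 70.1, 74.5 and 64.0 CPM in white light at 20 °C and at 137, 155 and 145 at 28 °C. In shade it stood at 57.1, 73.8 and 60.5 CPM at 20 °C and at 111, 138 and 119 at 28 °C. All 6 libraries at 28 °C lay above all 6 at 20 °C. The log2 change with warmth was 1.07 ± 0.11 in white light, a fold of 2.096 (limma adjusted p = 2.36e-07), and 0.95 ± 0.11 in shade, a fold of 1.93 (adjusted p = 6.67e-06). These are the values of the reads that HSFB1 shares with AT4G36988.

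HSFB2A, a repressor of the same class, rose with warmth at both light settings. It stood at 4.02, 3.08 and 1.14 CPM in white light at 20 °C and at 8.48, 14.97 and 15.2 at 28 °C. In shade it stood at 2.69, 3.46 and 4.39 CPM at 20 °C and at 19.95, 14.9 and 17.02 at 28 °C. Every library at 28 °C lay above every library at 20 °C. The log2 change was 2.29 ± 0.38 in white light, a fold of 4.89 (limma adjusted p = 0.000114), and 2.28 ± 0.38 in shade, a fold of 4.86 (adjusted p = 0.000544). Without replicate 3 of white light at 20 °C, whose 1.14 CPM came from 4 reads, the change in white light was 1.79 (adjusted p = 0.00108).

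HSFB2B, the close relative of HSFB2A and also a repressor, stood at 8.03, 2.84 and 5.14 CPM in white light at 20 °C and at 12.1, 16.4 and 13.1 at 28 °C. In shade it stood at 5.60, 5.76 and 7.31 CPM at 20 °C and at 9.12, 12.2 and 9.26 at 28 °C. The groups did not overlap at either light setting. It rose in white light by 1.47 ± 0.32 on the log2 scale, a fold of 2.76 (limma adjusted p = 0.00228). In shade the change was 0.70 ± 0.32 and was not called (unadjusted p = 0.0397, adjusted p = 0.271). The change in shade minus that in white light was -0.77 ± 0.46 (adjusted p = 0.611), with a 95% interval from -1.71 to 0.17, so the rises were not shown to differ. The antisense neighbour AT4G11670 changed by 0.17 ± 0.18 with warmth in white light (adjusted p = 0.593).

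Of the other 13 heat shock factor genes, 10 were tested, and limma called 0 of 10 in each of the 6 comparisons, also with voom weights, and 0 had an unadjusted p under 0.05. With warmth 10.8% of all tested genes rose and 4.8% fell in white light, and 2.19% rose and 1.99% fell in shade. Shade against white light called 8.09% at 20 °C and 4.59% at 28 °C, and the interaction 0.446%. For shade with warmth 14.9% rose and 7.42% fell, the largest shares. With 10 genes, 0 calls is not far from these backgrounds. HSFA6A, HSFA7B and HSFB3 were too low to be tested. HSFA3, a class A factor that DREB2A activates in Arabidopsis, changed by 0.25 ± 0.22 with warmth in white light (adjusted p = 0.487) and by 0.15 ± 0.22 in shade (adjusted p = 0.792). Summed over the 21 factor genes per kilobase, the level was 117 ± 4.90 CPM per kb in white light at 20 °C, 179 ± 8.42 in white light at 28 °C, 118 ± 2.57 in shade at 20 °C and 173 ± 11.8 in shade at 28 °C. Class B took 41.7 ± 3.12% of it in white light at 20 °C, 56.0 ± 1.76% in white light at 28 °C, 38.3 ± 4.40% in shade at 20 °C and 50.4 ± 0.443% in shade at 28 °C, and class A1 took 19.7 ± 0.515%, 14.8 ± 0.868%, 18.8 ± 1.28% and 15.69 ± 1.51%. Without HSFB1, the most abundant of them, class B took 12.4%, 19.1%, 11.5% and 17.615% in the same order, and the 2 white light groups then overlapped (7.87 to 18.9% at 20 °C and 16.7 to 21.2% at 28 °C). These shares are a description, and a share moves when any other class moves. The level of class A1 itself was 23.0 ± 1.20 and 26.6 ± 1.07 CPM per kb in white light at 20 and 28 °C. In shade it was 22.2 ± 1.28 and 27.2 ± 2.45 CPM per kb. At neither light setting did the summed A1 levels at 20 and 28 °C overlap, which was not tested.

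**Figure D3:**
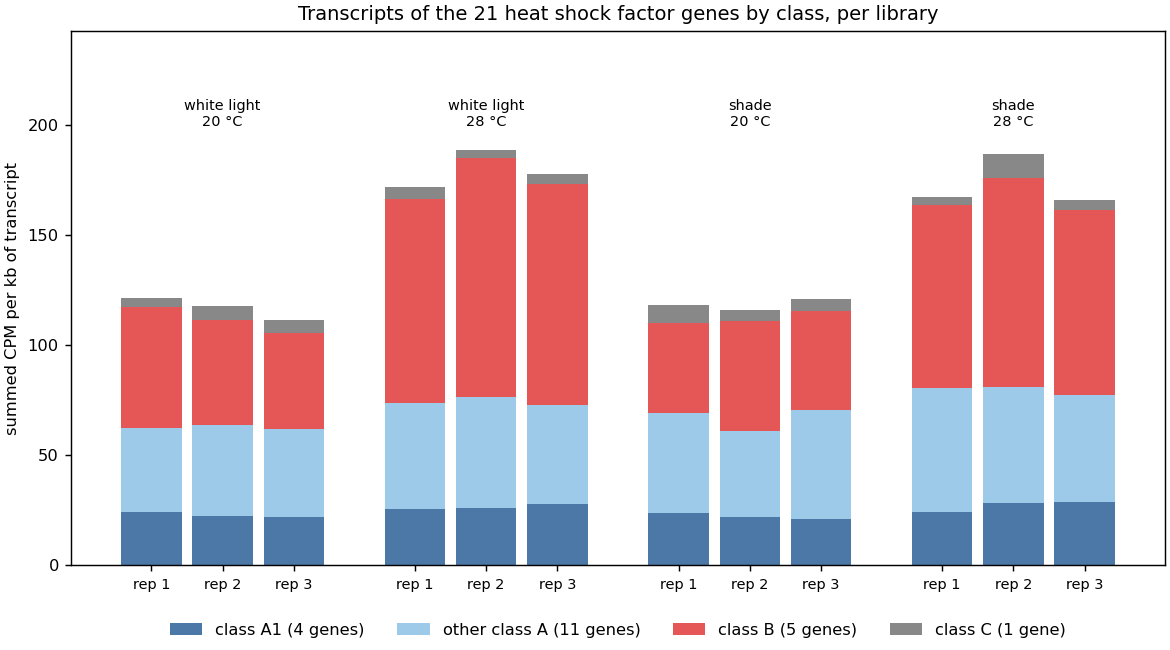
Summed CPM per kb of the 21 heat shock factor genes in each library, stacked by class. The class B part is 40.95 to 54.8 CPM per kb in the 6 libraries at 20 °C and 83.5 to 108 in the 6 at 28 °C, and the class A1 part is 21.1 to 28.9 in all 12.

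DREB2A, whose product binds the DRE core, was not called in any comparison. It stood at 8.48, 15.6 and 11.7 CPM in white light at 20 °C and at 13.1, 13.3 and 14.7 at 28 °C, with overlap. In shade it stood at 9.63, 6.23 and 6.34 CPM at 20 °C and at 14.3, 11.7 and 14.5 at 28 °C, with no overlap. The change with warmth was 0.24 ± 0.26 in white light (limma adjusted p = 0.596) and 0.88 ± 0.26 in shade, where the adjusted p of 0.0519 lay just past the threshold. The shade value was called in 5 of 23 alternatives, with adjusted p between 0.0373 and 0.201 over all of them. The 3 of these that left out a library were those without replicate 1 of white light at 20 °C (0.0411), replicate 2 of that group (0.0492) and replicate 1 of shade at 20 °C (0.0373). The 2 changes differed by 0.64 ± 0.37 (adjusted p = 0.588). In shade against white light at 20 °C DREB2A changed by -0.67 ± 0.26 (unadjusted p = 0.0159, adjusted p = 0.121), and the libraries overlapped.

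Of 7 other genes of the DREB2 family, 6 were tested. None was called for warmth or for shade alone, while 1 had an unadjusted p under 0.05 for warmth in shade and 2 for shade at 28 °C. Among all tested genes 10.8% rose and 4.8% fell with warmth in white light, and 2.19% rose and 1.99% fell in shade. Shade against white light called 8.09% at 20 °C and 4.59% at 28 °C, so 0 of 6 is not far from the background. Under both factors 1 of the 6 rose and 1 fell, where 14.9% of tested genes rose and 7.42% fell. For both factors against white light at 20 °C, DREB2D rose by 2.36 ± 0.63 (limma adjusted p = 0.00713, and 0.0516 with a constant prior variance), from 1.3005 ± 0.142 to 7.30 ± 1.81 CPM. DREB2C, which activates HSFA3 in Arabidopsis, fell by 0.65 ± 0.23 (adjusted p = 0.0387), from 17.785 ± 2.61 to 11.3 ± 1.81 CPM. The DREB2C call was lost without any 1 of 4 libraries, namely 2 controls (replicates 1 and 3) and 2 libraries of both factors (replicates 1 and 2) (adjusted p from 0.0736 to 0.151).

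Among 7 genes for proteins that control DREB2A, the ubiquitin ligase genes DRIP1 and DRIP2, the adaptor gene BPM2, NF-YA2 and the repressor gene GRF7 were not called in any comparison. With warmth 1 of the 7 rose and 1 fell in white light, where 10.8% of all tested genes rose and 4.8% fell. In shade 1 rose and 0 fell, where 2.19% of all tested genes rose and 1.99% fell. These counts are not far from the background. NF-YC10, a subunit of the complex that works with DREB2A in heat, rose with warmth by 0.93 ± 0.23 in white light (limma adjusted p = 0.00567), from 11.5 ± 1.41 to 22.3 ± 5.01 CPM, and by 0.83 ± 0.23 in shade (adjusted p = 0.0365), from 12.2 ± 3.70 to 21.3 ± 3.38 CPM. Leaving out replicate 2 of white light at 28 °C ended the first call (adjusted p = 0.0558). The call in shade was lost without any 1 of 5 shade libraries, all of them except replicate 3 at 20 °C (adjusted p from 0.057 to 0.203), and under all 3 other scalings. NF-YB3, another subunit, fell with warmth in white light by 0.54 ± 0.15 (adjusted p = 0.0162), and leaving out replicate 3 of that warm group ended the call (adjusted p = 0.094).

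Of 5 genes known as DREB2A targets, 0 rose with warmth and 2 fell at each light setting. Among all tested genes 10.8% rose and 4.8% fell with warmth in white light, and 2.19% rose and 1.99% fell in shade. So 0 rises among 5 is not far from the background. RD29A, a stress gene with DRE motifs that other DREB factors and cold also activate, stood at 201 to 226 CPM in white light at 20 °C, 21.8 to 30.8 in white light at 28 °C, 140 to 197 in shade at 20 °C and 53.3 to 66.7 in shade at 28 °C. It fell by 2.98 ± 0.14 in white light (limma adjusted p = 2.16e-14) and fell by 1.5015 ± 0.14 in shade (adjusted p = 7.24e-08). The difference between these changes was 1.48 ± 0.19 (adjusted p = 9.69e-05), and its adjusted p was 0.166 when limma held the prior variance constant. LEA14, a late embryogenesis protein gene, fell by 1.23 ± 0.13 in white light (adjusted p = 2.87e-07) and by 0.65 ± 0.13 in shade (adjusted p = 0.00389), the second also lost with that prior (adjusted p = 0.122). RD29B, LEA7 and HSFA3 were not called for warmth.

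MBF1C had the lowest adjusted p of the 10 genes with warmth in white light. It stood at 8.26, 10.4 and 10.6 CPM in white light at 20 °C and at 38.3, 41.5 and 38.9 at 28 °C. In shade it stood at 9.63, 9.22 and 11.5 CPM at 20 °C and at 38.5, 27.3 and 24.8 at 28 °C. All 6 libraries at 28 °C lay above all 6 at 20 °C. The log2 change was 2.02 ± 0.20 in white light, a fold of 4.04 (limma adjusted p = 5.34e-08), and 1.55 ± 0.20 in shade, a fold of 2.93 (adjusted p = 1.41e-05). The antisense neighbour AT3G24503, with 9919 reads to 1091 of MBF1C, changed by -0.13 ± 0.10 with warmth in white light (adjusted p = 0.394).

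MBF1A and MBF1B are the other members of the MBF1 family. MBF1A, also a coactivator, rose from 95.6 ± 7.33 to 128 ± 2.68 CPM in white light, a log2 change of 0.42 ± 0.10 (limma adjusted p = 0.00401), which was 0.27 and no longer called after each library's median was subtracted (adjusted p = 0.102). In shade it changed by 0.16 ± 0.10 (adjusted p = 0.459). MBF1B stood at 189 ± 11.6 and 197 ± 16.3 CPM in white light at 20 and 28 °C and was not called in any comparison. TPS5, a protein of the trehalose-phosphate synthase family that binds MBF1C, changed by -0.10 ± 0.13 with warmth in white light (adjusted p = 0.688). Under both factors TPS5 fell by 0.40 ± 0.13 (adjusted p = 0.0315), a call lost without any 1 of 4 libraries, namely 2 controls (replicates 2 and 3) and 2 libraries of both factors (replicates 1 and 3) (adjusted p from 0.072 to 0.141).

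Counted together, 5 of the 10 genes rose with warmth in white light (HSFA7A, HSFB1, HSFB2A, HSFB2B and MBF1C) and 0 fell, where 10.8% of all tested genes rose and 4.8% fell. The median change of the 10 was 0.78 on the log2 scale, beside 0.16 for all tested genes. In shade 4 of the 10 rose with warmth (HSFA7A, HSFB1, HSFB2A and MBF1C) and 0 fell, where 2.19% of tested genes rose and 1.99% fell, and the medians were 0.79 and 0.08. In the libraries left after dropping the 28 °C library with most 18S reads from each light setting, 5 rose in white light and 3 in shade. In those libraries 1511 of the 21316 tested genes rose with warmth in white light and 253 in shade.

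**Figure D4:**
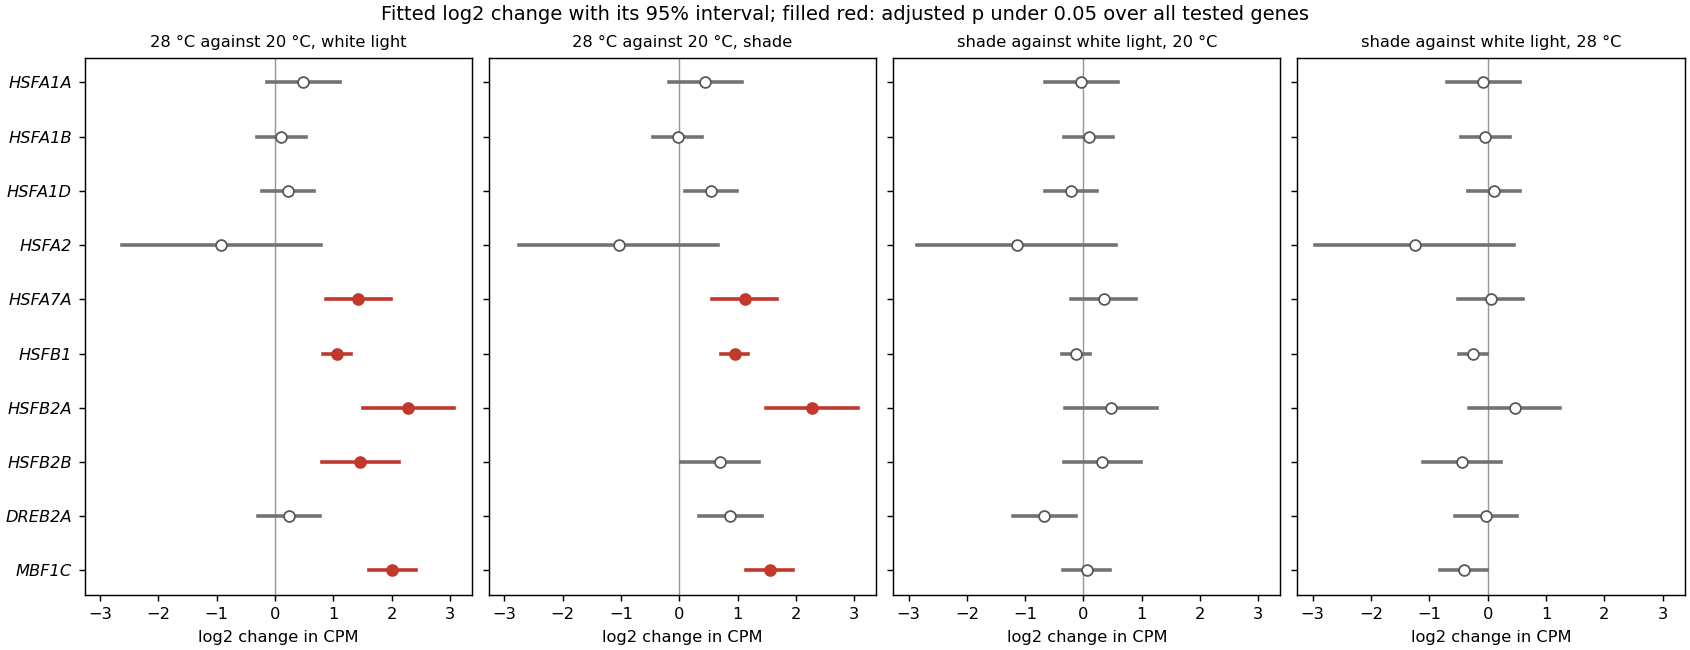
Log2 change of the 10 genes in 4 comparisons, with points for the fitted change and lines for its 95% interval. Filled red points passed an adjusted p of 0.05, and they appear for 5 genes with warmth in white light, 4 with warmth in shade and 0 in either comparison of shade with white light.

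No call was made among the 10 genes for shade against white light. At 20 °C limma called 0 of 10 where 8.09% of tested genes were called, and 1 of the 10, DREB2A, had an unadjusted p under 0.05. At 28 °C it called 0 of 10 where 4.59% were called, and 2 had an unadjusted p under 0.05. These were HSFB1 with a change of -0.25 ± 0.11 (unadjusted p = 0.0385, adjusted p = 0.284) and MBF1C with -0.41 ± 0.20 (unadjusted p = 0.0441, adjusted p = 0.305). The 95% interval of the MBF1C change ran from -0.82 to -0.01 and that of HSFB1 from -0.48 to -0.01. Their intervals at 20 °C ran from -0.35 to 0.45 and from -0.37 to 0.10. With voom weights the counts were also 0.

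The seedlings given shade and warmth together were compared with those in white light at 20 °C, a control that the comparison of warmth in white light shares. 5 of the 10 rose and 0 fell, where 14.9% of tested genes rose and 7.42% fell. HSFB2A rose by 2.75 ± 0.38 (limma adjusted p = 4.36e-06), MBF1C by 1.60 ± 0.20 (adjusted p = 6.07e-07), HSFA7A by 1.48 ± 0.27 (adjusted p = 0.000183) and HSFB1 by 0.82 ± 0.11 (adjusted p = 5.05e-06). HSFB2B rose by 1.02 ± 0.32 (adjusted p = 0.0226), but this call did not hold without replicate 2 of the control (adjusted p = 0.17), without replicate 2 of shade at 28 °C (adjusted p = 0.0984) and under each of the 3 other scalings (adjusted p from 0.0501 to 0.0606).

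The interaction asked whether the change with warmth differed between shade and white light. limma called 0 of 10 genes, 0 had an unadjusted p under 0.05, and 0.446% of tested genes were called. The difference for MBF1C was -0.47 ± 0.28, with a 95% interval from -1.04 to 0.10. For HSFB1 it was -0.12 ± 0.16, from -0.45 to 0.21, and for HSFA7A it was -0.30 ± 0.38, from -1.09 to 0.49. For HSFB2A the interval ran from -1.12 to 1.10, so that a difference of 2-fold in either direction was not excluded.

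Most of the tested genes that heat shock factors are known to switch on rose with warmth. Of 25 tested on a list of 26, 17 rose in white light, where 10.8% of all tested genes rose and 4.8% fell. In shade 15 of the 25 rose, where 2.19% of all tested genes rose and 1.99% fell. At either light setting 0 of the 25 fell. Their median log2 change was 1.56 in white light and 1.18 in shade, beside 0.16 and 0.08 for all tested genes, and both medians are the same with genes unread at 20 °C set at their lower bounds. HSP18.2, a small heat shock protein, went from 1.73 ± 1.06 to 147 ± 14.2 CPM in white light and from 2.01 ± 0.783 to 146 ± 7.79 in shade. GolS1, a galactinol synthase, went from 1.42 ± 0.459 to 35.1 ± 5.69 CPM in white light and from 2.99 ± 1.65 to 33.3 ± 3.99 in shade. HSP22.0, another small heat shock protein, had 0 reads in white light at 20 °C and 11.5 ± 2.03 CPM at 28 °C, at least 46.99-fold higher with 3 reads over the group as the floor. HSP90.1, the heat-inducible HSP90, went from 26.4 ± 5.61 to 103 ± 20.96 CPM in white light, a rise of 1.97 ± 0.18 (limma adjusted p = 1.94e-08), and from 18.8 ± 3.80 to 55.7 ± 10.9 CPM in shade, a rise of 1.56 ± 0.18 (adjusted p = 2.96e-06).

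Some of these targets were lower in shade. At 28 °C, 4 of 25 fell and 0 rose, where 1.9% of all tested genes fell and 2.68% rose. At 20 °C, 1 fell and 1 rose, where 2.66% fell and 5.43% rose. HSP70 was at 186 ± 29.8 CPM in white light and 95.7 ± 7.65 in shade, a fall of 0.95 ± 0.18 (limma adjusted p = 0.000868), and HSP90.1 fell by 0.89 ± 0.18 (adjusted p = 0.00222). HSP23.5, a mitochondrial small heat shock protein, fell by 1.69 ± 0.32 (adjusted p = 0.00132), and ROF2, a prolyl isomerase that binds HSP90, fell by 0.99 ± 0.21 (adjusted p = 0.00375). At 20 °C HSP70 fell by 0.86 ± 0.18 (adjusted p = 0.00159), while HSP22.0 rose to 2.34 ± 2.83 CPM from 0 reads, a mean 9.54-fold the same floor. Replicate 1 of shade held 25 of the 31 HSP22.0 reads. Without that library the mean was 0.718 CPM, from 2 and 4 reads, 2.92-fold the floor (limma adjusted p = 0.00552). The floor allows for counting error at 0 reads and not for that of this mean. The call in all libraries was lost with voom weights (adjusted p = 0.0648). With a constant prior variance 8 rises were called for warmth in shade, and the shade calls of HSP70, HSP90.1 and ROF2 were lost (adjusted p from 0.0948 to 0.151). In the interaction 0 of 25 were called, where 0.446% of all tested genes were, and 3 of the 25 had an unadjusted p under 0.05.

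**Figure D5:**
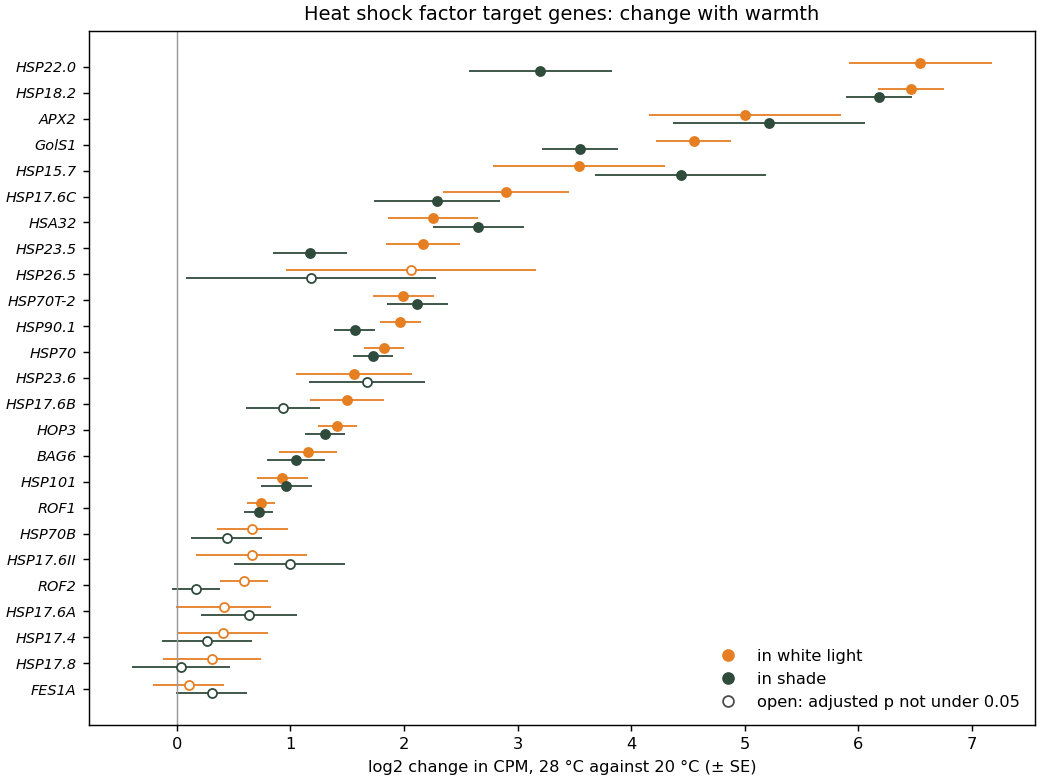
Log2 change with warmth (± SE) of the 25 tested target genes, in white light (orange) and in shade (dark green). Filled points passed an adjusted p of 0.05, which 17 did in white light and 15 in shade. The positions of HSP22.0 in white light and of APX2 depend on the constant added before the log, since these had 0 reads at 20 °C.

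The chaperones that hold heat shock factors inactive, together with the factor binding protein HSBP, made a list of 7. In white light 5 of 7 rose with warmth and 0 fell, where 10.8% of all tested genes rose and 4.8% fell. In shade 4 of 7 rose and 0 fell, where 2.19% of all tested genes rose and 1.99% fell. HSP90.2 rose from 193 ± 7.54 to 299 ± 11.2 CPM in white light, by 0.63 ± 0.10 (limma adjusted p = 5.18e-05), and from 154 ± 22.7 to 209 ± 5.61 in shade, by 0.45 ± 0.10 (adjusted p = 0.00686). HSP90.3 rose by 0.59 ± 0.11 in white light (adjusted p = 0.000421), and HSC70-2 by 1.14 ± 0.23 (adjusted p = 0.00108). HSC70-1 rose from 841 ± 15.4 to 1175 ± 36.7 CPM in white light, by 0.48 ± 0.10 (adjusted p = 0.00143, and 0.0521 after each library's median was subtracted), and changed by -0.10 ± 0.10 in shade (adjusted p = 0.696). The difference between these was -0.58 ± 0.14 (adjusted p = 0.067), which was called with a robust prior variance (0.0181), with voom weights (0.011) and without replicate 3 of shade at 20 °C (0.03). HSBP was not called in any comparison. The HSP90.2, HSP90.3 and HSP90.4 genes are near-identical copies, and how counting split their reads is uncertain.

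Some genes of this list were lower in shade. Of the 7, 2 fell at 20 °C, where 2.66% of all tested genes fell, and 4 fell at 28 °C, where 1.9% did. HSP90.2 fell by 0.34 ± 0.10 at 20 °C (limma adjusted p = 0.0323) and by 0.51 ± 0.10 at 28 °C (adjusted p = 0.00134), and HSP90.3 fell by 0.35 ± 0.11 (adjusted p = 0.0463) and 0.46 ± 0.11 (adjusted p = 0.0114). The HSP90.2 call at 20 °C was lost without replicates 2 or 3 of white light or replicates 1 or 3 of shade (adjusted p from 0.0916 to 0.221), and the HSP90.3 call also without 3 libraries at 28 °C (0.051 to 0.261 in all). The HSP90.3 call at 28 °C was lost without replicate 2 of white light (0.0619) or replicate 1 of shade (0.0579), and the rise of HSP90.2 in shade without replicate 3 at 20 °C (0.053). Over the settings tried, the count ran from 0 to 3 at 20 °C and from 0 to 4 at 28 °C, and from 0 to 4 for warmth in shade. Without the 28 °C libraries with most 18S reads it was 1 for shade at 28 °C and 3 for warmth in shade.

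The genes whose pattern over the 12 libraries was most like each called member were taken from 18563 tested genes with a mean log2 CPM of at least 1, by the smallest root mean square difference of centred log2 values. For MBF1C these were SR45a, a splicing factor gene (0.30), HSP90.1 (0.31) and AT3G14200 (0.31). For HSFB1 they were AT4G36988, which has the same reads, then FBA6, an aldolase gene (0.13), and Hsp89.1, a mitochondrial HSP90 gene (0.16). For HSFA7A they were VHA-E3, a vacuolar proton pump subunit gene (0.23), MYB43 (0.25) and CYP78A6 (0.27). For HSFB2B they were AT3G59150 (0.22), AT3G60520 (0.27) and SQN, a cyclophilin gene (0.28). For HSFB2A, whose low counts vary more, the nearest was AAC3, an ADP/ATP carrier gene (0.46), followed by AT3G41762 and AT1G62760 (both 0.56). All libraries, depths and groups are shared by these genes, and the likeness is a description.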

How the data were processed

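RNA from 12 seedling libraries, 3 per group, was measured by polyA RNA sequencing. The authors deposited log2 CPM values on the voom scale, written with decimal commas, after adding 0.5 read to each gene. This other unit than reads was turned back into counts, and 100% of the deposited values gave whole reads within 0.001 read. The table's headers named columns by ambient or heat while the titles named temperatures, so ambient was read as 20 °C and heat as 28 °C. The submitters' processing notes name TAIR10 and, among tools, SAMtools 1.3, TopHat2 2.1.1, R 4.0.2 and limma. The read counter was not given in the sources used here.

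Genes with log2 CPM of at least 0 in at least 3 of 12 libraries were tested, 21316 of 33602. A limma 3.58.1 model of the 4 group means was run under R 4.3.3, with a trended eBayes prior, 2-sided tests, Benjamini-Hochberg adjustment over all tested genes and a threshold of 0.05. The code was tested on simulated data. Python 3.11.15 with pandas 2.3.3, numpy 2.4.6 and matplotlib 3.10.9 made tables and plots. Replicates of a group differed by more than counting error, with a chi-square per degree of freedom of 2.97 to 8.39 between pairs, and floors cover counting error only. Alternatives changed the prior variance, the filter, the scaling, the added constant, the weights, a replicate block and single libraries.

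The 10 genes, the gene lists and the tests were chosen with earlier results of these data known. From each other list at most 4 called genes per comparison were named, by smallest adjusted p, plus TPS5, MBF1A, MBF1B and HSFA3. Other list genes appear in figures, as not called or not tested, or as uncertain copies. Gene lengths, symbols and upstream sequences came from RefSeq TAIR10.1, matched by locus identifier.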

Additional observations from a re-analysis of the deposited data

Results flagged for a closer look

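RD29A, a stress gene known as a DREB2A target, had a change with warmth that differed between the light settings by the test of the difference itself. Its change in shade minus its change in white light was 1.48 on the log2 scale (SE 0.19, limma adjusted p = 9.69e-05). It fell with warmth at both settings, from 217 ± 14.4 to 27.7 ± 5.09 CPM in white light and from 165 ± 29.4 to 58.0 ± 7.58 CPM in shade (SD, n = 3). It was called under 22 of 23 alternatives, and with a constant prior variance the adjusted p was 0.166.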

How the results depend on the processing

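Over the 23 alternatives run, the number of the 10 genes called stayed at 5 for warmth in white light, at 3 to 5 for warmth in shade, at 4 to 6 for shade with warmth and at 0 in the other comparisons. The rises of HSFB1, HSFB2A and MBF1C were called under each alternative with warmth at both light settings, HSFA7A and HSFB2B in white light. No called result changed sign. With a constant prior variance the genes called over all tested genes numbered 1950 for warmth in white light, 184 for warmth in shade, 919 for shade at 20 °C, 357 for shade at 28 °C and 6 for the interaction, against 3333, 892, 1724, 978 and 95. Of 63 single-gene calls followed through the alternatives, 24 were lost with that prior, against 10 or fewer under each of the others. Without the 28 °C libraries with most 18S reads they were 575 for warmth in shade, 629 for shade at 28 °C and 56 for the interaction. Leaving out 1 library at a time gave 402 to 996 for warmth in shade, 1113 to 1827 for shade at 20 °C and 59 to 155 for the interaction. The constant prior and the 2 dropped libraries also ended the call of HSFA7A for warmth in shade (adjusted p = 0.062 and 0.0573) and of HSFB2B for shade with warmth (0.0538 and 0.108); the cause was not tested. A replicate block changed no call of the 10 genes and gave 3428 genes called for warmth in white light against 3333, and it brought the interaction of HSC70-1 to an adjusted p of 0.0479; same-numbered libraries had residual correlations of -0.0297 to 0.0414 over 18 pairs. The count models edgeR and DESeq2, planned as alternatives, were not run; limma with voom weights gave the same counts for the 10 genes. Depth limits HSFA2 most, with 8 to 30 reads per group.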
